A study of Mus musculus with 192 samples.

Results

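The comparison described here asks how gene expression in white fat differed between flown mice and mice kept on the ground when the transcription factor Nrf2 was missing. It rests on the epididymal white adipose tissue (eWAT) libraries of Nrf2KO mice, namely 5 mice of the condition Flight (FL_KO) and 6 of the condition Ground_control (GC_KO). These are 11 of the 192 samples of the series and 11 of its 24 eWAT libraries. The sixth flown mouse, FL04, had an intestinal bleed on the return journey according to the study and was left out here as there. Its values are given beside the interferon genes, and calls of named genes that its inclusion changed are given beside those genes. The 12 eWAT libraries of wild-type mice, 6 flown (FL_WT) and 6 on the ground (GC_WT), serve only for comparison.

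All mice were of the C57BL/6 strain by the labels (C57BL/6J in the study's methods), and their age was given as 12 weeks. By the study's methods this was the age before launch, and the flown mice were dissected after their stay in space. Males were used according to the study's methods. Both Nrf2KO groups carry the same deletion in Nfe2l2, the gene of Nrf2, in every cell of the body (the Nfe2l2tm1Ymk allele), so the comparison within the knockout holds the deletion constant. Flown mice lived on the International Space Station, returned to Earth and were dissected after travel to a laboratory in California. The ground control mice were kept in the same kind of cage, in Japan and in a later season. By the study's methods the flown mice were moved to flight food before launch, and another feed is named for the ground control mice. Spaceflight, launch, return, site, season and any difference in food therefore cannot be told apart in any value below. A mouse number used in both conditions does not mark the same animal.

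White fat cells store energy as triglycerides. After feeding, insulin turns on de novo lipogenesis, in which glucose carbon leaves the mitochondrion as citrate and is built into fatty acids that are then desaturated, elongated and esterified. In fasting and under adrenergic drive, lipases release the stored fatty acids and glycerol. Nrf2 binds antioxidant response elements and turns on genes of glutathione, NADPH and detoxification metabolism.

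The 11 knockout libraries held about 15590400 to 16046300 expected counts (the estimated number of reads per gene), of which 5.38 to 8.79% fell on mitochondrial transcripts. The 50 most abundant genes took 25.1 to 26.8% of the counts in FL_KO and 26.2 to 31.2% in GC_KO. Adipocyte markers summed to 56541 to 62799 TPM (transcript level per length, scaled to the same total in each library) in FL_KO and 44836 to 58005 in GC_KO, and Adipoq was at 3512 to 4592 TPM in GC_KO and 4567 to 5227 TPM in FL_KO. Fabp4 made up much of the adipocyte sum, at 16817 to 24858 TPM in GC_KO and 28502 to 30760 TPM in FL_KO. Of the 8 markers 7 had a log2 fold change above 0. Cfd lay below 0 (-0.44), with 13504 to 20408 TPM in GC_KO and 9046 to 16033 TPM in FL_KO. The library of GC_KO mouse 11 carried transcripts of sperm cells (8 testis markers, 185 TPM in sum, against at most 4.19 TPM in FL_KO) and of epididymis (21.4 TPM). Lymphocyte markers summed to 328 to 837 TPM in GC_KO and 140 to 237 TPM in FL_KO, and Schwann cell markers to 156 to 194 and 106 to 130 TPM, both without overlap. In FL_KO most of the lymphocyte sum was the antibody gene Ighm, whose values are given below. In bulk tissue, fewer cells of a type and less RNA per cell cannot be told apart.

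Nfe2l2 itself was still transcribed in the knockout, since the allele does not remove the whole transcript. Its level was 33.9 ± 5.45 TPM in GC_KO (SD, n = 6) and 29.5 ± 3.14 TPM in FL_KO (SD, n = 5), against 58.1 to 87.9 TPM over the GC_WT mice. The difference between flown and ground knockout mice did not pass the test (log2 fold change -0.21 ± 0.09 (SE), adjusted p = 0.167).

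Of 15317 genes tested with edgeR, 572 were higher and 609 were lower in FL_KO than in GC_KO at an adjusted p under 0.05, which together is 7.71% of the genes tested (3.73% higher and 3.98% lower). The median log2 fold change of all genes was -0.01. Among the called genes the median size of the log2 fold change was 0.51, and 225 exceeded 1, of which 172 were lower and 53 higher. For 615 of the 1181 called genes, counts scaled to library size (CPM) did not overlap between the 5 flown and the 6 ground mice. Over all genes tested, 5.07% did not overlap. When TPM were tested with limma instead, 872 genes were called and 65.1% of them were higher, against 48.4% in the count fit, while the median log2 fold change of all genes was 0.02 there. Without FL_KO mouse 2 the count fit called 387 genes higher and 319 lower, and without GC_KO mouse 4 it called 734 and 718. On the first principal component of the TPM values, which held 18.4% of the variance, the flown knockout mice lay at 3.63 to 18.5 and the ground knockout mice at -28.3 to -1.22.

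**Figure D1:**
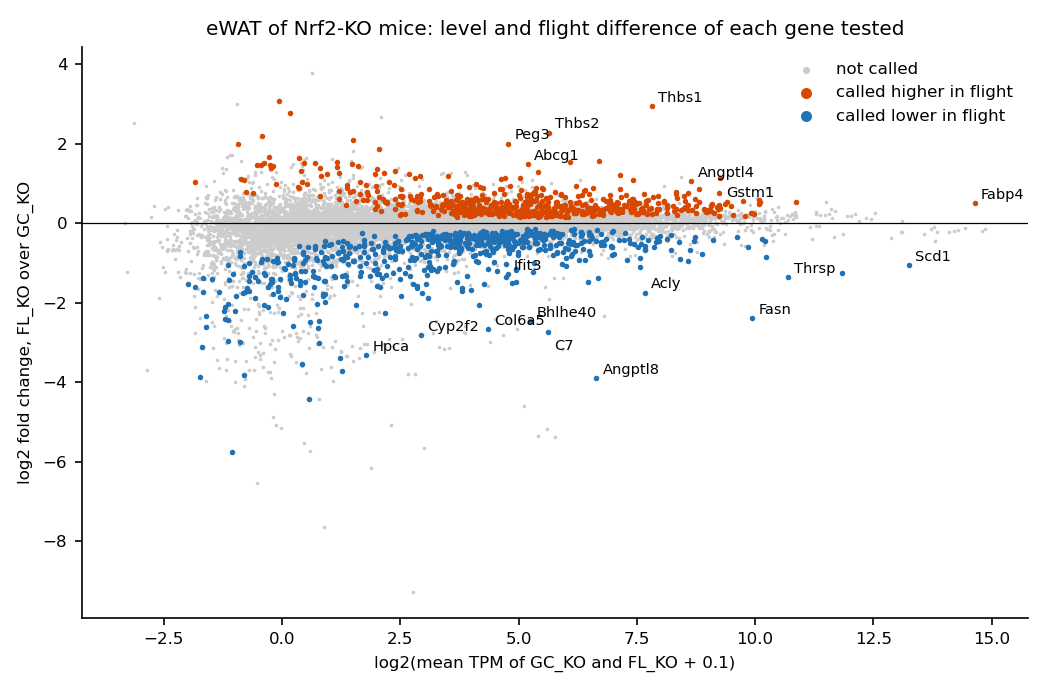
Each point is 1 of the 15317 genes tested in eWAT of Nrf2-KO mice, with its mean level on the x axis, as log2(TPM + 0.1), and its log2 fold change between FL_KO and GC_KO on the y axis. Orange points were called higher and blue points lower at an adjusted p under 0.05, and most of the called log2 fold changes beyond 1 lay below 0 (172 of 225), as for Fasn at -2.38, while Thbs1 at 2.95 stood out above 0.

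Transcripts of de novo lipogenesis fell. Of its 18 listed genes, all of which were tested, 14 fell and none rose, with a median log2 fold change of -0.93 against -0.01 over all genes. The share that fell over all genes tested was 3.98%. Fasn, the fatty acid synthase (ENSMUSG00000025153.9, chr11:120805846-120824547, minus strand), had 377, 231, 416, 254 and 311 TPM in FL_KO mice 1, 2, 9, 11 and 12. The lowest, median and highest GC_KO mouse had 740.4, 1660.5 and 2633 TPM. Every flown mouse was thus below every ground mouse, and Fasn fell to 19.2% of the ground level (log2 fold change -2.38 ± 0.33 (SE), adjusted p = 0.000307).

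Acly, which cleaves citrate into cytosolic acetyl-CoA, had 79.3, 74.3, 128, 84.3 and 102 TPM in the 5 flown mice and 111, 264 and 584 TPM in the lowest, median and highest ground mouse. The ground mice were spread widely and the lowest lay among the flown ones, and Acly fell by 1.74 ± 0.34 (SE) on the log2 scale (adjusted p = 0.0035). Acaca, the acetyl-CoA carboxylase that makes malonyl-CoA, had 203 ± 54.7 TPM on the ground (SD, n = 6) and 108 ± 11.6 TPM in flight (SD, n = 5) and fell by 0.92 ± 0.19 (SE) on the log2 scale (adjusted p = 0.00496). Elovl6, which lengthens palmitate, fell by 1.67 on the log2 scale (adjusted p = 0.00365), with 8.49 to 50.8 TPM on the ground and 5.71 to 10.5 in flight. Its highest ground value came from mouse 11, the mouse with testis transcripts.

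Scd1, the stearoyl-CoA desaturase and one of the most abundant transcripts of the tissue, had 6975, 3359.6, 6870.5, 7543 and 7111 TPM in FL_KO and 11512, 13127 and 14760 TPM as lowest, median and highest in GC_KO. The groups did not overlap, and the log2 fold change was -1.05 ± 0.17 (SE), adjusted p = 0.001. Thrsp, which promotes lipogenesis, had 1036, 712, 1266, 767 and 881 TPM in flight and 1465, 2327 and 3556 TPM on the ground, again without overlap, and fell to 39.3% of the ground level (adjusted p = 0.00343). The regulators of the programme fell as well. Mlxipl, which encodes the carbohydrate sensor ChREBP, fell by 0.93 ± 0.17 (SE) on the log2 scale (adjusted p = 0.00266), and Srebf1, which encodes the insulin-responsive SREBP1, by 0.88 ± 0.19 (adjusted p = 0.00636). Slc25a1, the citrate carrier, and Aacs, which activates acetoacetate for lipid synthesis, fell by 0.91 and 1.11 on the log2 scale (adjusted p = 0.00329 and 0.00255). Srebf1 overlaps Rai1 and Mlxipl overlaps Gm43500 on the opposite strand, and reads could have been shared where counting ignored strand. The 4 members not called were Pnpla3, Fads2, Acacb and Elovl5. The 18 alternatives left 12 to 16 of the 18 genes called lower and none higher.

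**Figure D2:**
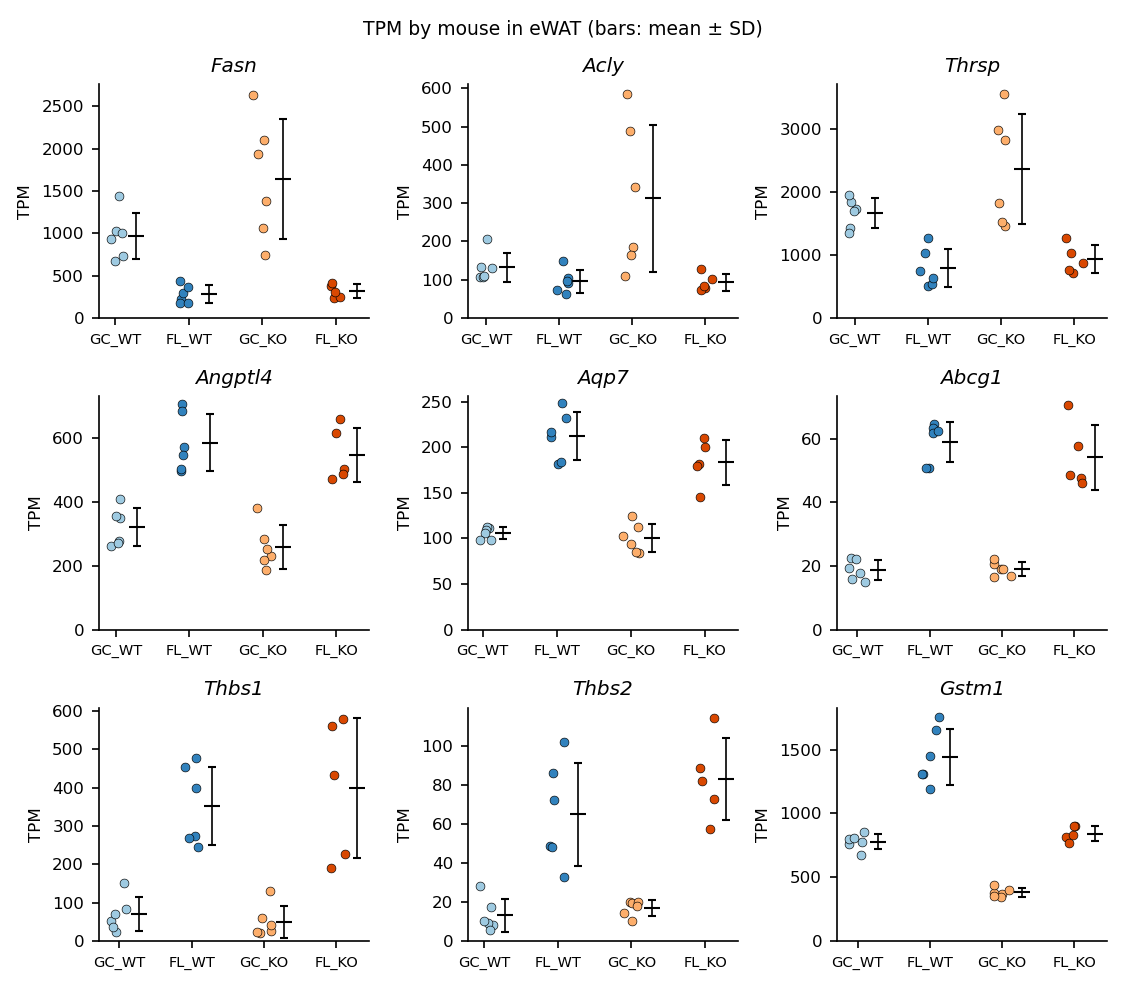
TPM of 9 genes in each mouse (points) of the 4 eWAT groups, with mean ± SD as bars; FL04 is not shown. Fasn, Acly and Thrsp were lower and Angptl4, Aqp7, Abcg1, Thbs1, Thbs2 and Gstm1 higher in FL_KO than in GC_KO, and of these only Acly had overlapping mice.

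Promoter sequences were read from RefSeq for genes of the largest changes and of lists that moved together, from 250 bases before to 50 bases after the start site (GRCm38.p6). Thbs1, Scd1, Abcg1 and Bhlhe40 had no entry in this table. The windows show which listed motifs lie in front of the falling lipogenic genes, of Hpca (the largest decrease among genes with a mean of at least 5 TPM in either group and no overlap in CPM) and of a glutathione transferase. Capitals mark the match: CACGTG (E-box) in Hpca, GATTGGCT (NF-Y) in Thrsp, TCACNCCAC (sterol response element) in Mlxipl and TGACNNNGC (antioxidant response element core) in Gsta3. They were searched on both strands. RefSeq gave 3 windows for Hpca and 2 for Mlxipl, and those printed are the ones that hold these matches. The antioxidant element core and the AP-1 motif TGACTCA can share letters.
Hpca, chr4:129120123-129120422, minus strand: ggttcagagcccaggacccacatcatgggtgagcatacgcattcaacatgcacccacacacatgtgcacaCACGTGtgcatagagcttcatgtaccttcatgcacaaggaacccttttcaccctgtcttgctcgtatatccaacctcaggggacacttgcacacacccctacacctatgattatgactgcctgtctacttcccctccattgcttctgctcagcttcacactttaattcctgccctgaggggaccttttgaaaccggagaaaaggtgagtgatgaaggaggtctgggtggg
Thrsp, chr7:97417501-97417800, minus strand: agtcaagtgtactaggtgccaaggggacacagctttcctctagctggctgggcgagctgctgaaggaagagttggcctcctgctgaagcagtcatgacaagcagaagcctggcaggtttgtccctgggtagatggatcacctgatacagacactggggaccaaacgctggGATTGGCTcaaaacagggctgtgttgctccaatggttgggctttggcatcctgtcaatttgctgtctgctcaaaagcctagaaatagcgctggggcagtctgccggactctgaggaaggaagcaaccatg
Mlxipl, chr5:135106641-135106940, plus strand: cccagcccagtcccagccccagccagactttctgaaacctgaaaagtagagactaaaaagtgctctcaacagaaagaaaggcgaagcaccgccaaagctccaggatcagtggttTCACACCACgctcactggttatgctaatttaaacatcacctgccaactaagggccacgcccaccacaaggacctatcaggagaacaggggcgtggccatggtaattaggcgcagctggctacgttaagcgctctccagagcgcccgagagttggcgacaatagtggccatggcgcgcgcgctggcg
Gsta3, chr1:21240335-21240634, plus strand: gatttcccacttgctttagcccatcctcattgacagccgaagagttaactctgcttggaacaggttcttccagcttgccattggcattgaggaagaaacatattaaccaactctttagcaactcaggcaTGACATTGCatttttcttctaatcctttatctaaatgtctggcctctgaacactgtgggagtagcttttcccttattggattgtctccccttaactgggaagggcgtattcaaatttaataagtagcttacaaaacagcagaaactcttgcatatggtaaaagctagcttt

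Of the 14 lipogenic genes that fell, 11 had a window. A sterol response element lay in 1 of them, an E-box in 2, an NF-Y motif in 1 and the antioxidant element core in 3. Over all 27025 genes with a window, the shares were 1.44%, 8.09%, 4.4% and 14.0%. The Fasn, Acly, Elovl6 and Srebf1 windows held no match to any motif searched, which says only that these letters are not in these 300 bases.

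Triglyceride synthesis was lower in 4 of 16 genes (3.98% over all genes tested) and higher in none, with a median of -0.28. Dgat2, which adds the last fatty acid to diacylglycerol, had 813, 707, 956, 879 and 935 TPM in FL_KO and 1159.8, 1387 and 2062 TPM as lowest, median and highest in GC_KO. No flown mouse reached the lowest ground mouse, and the log2 fold change was -0.85 ± 0.17 (SE), adjusted p = 0.00355. Agpat2 (-0.67, adjusted p = 0.011), Mogat1 (-0.59, adjusted p = 0.0277) and Bscl2, the seipin gene (-0.29, adjusted p = 0.0328), fell too. Agpat2 and Mogat1 make intermediates of glycerolipids, and seipin shapes lipid droplets. The Bscl2 call held in 9 of the 18 alternatives and the Mogat1 call in 13.

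Of 16 genes listed for lipolysis, 5 were higher at the transcript level (3.73% over all genes tested) and none lower, with a median of 0.16. They include a gene that restrains lipolysis, and the rate of lipolysis was not measured. The genes that rose cleave the last ester, carry or export the products, or set the signal. Aqp7, the glycerol channel of fat cells, had 200.1, 211, 146, 182 and 179 TPM in the flown and 83.7, 98.5 and 124 TPM in the lowest, median and highest ground mouse. All flown mice were above all ground mice, and Aqp7 rose 1.81-fold (log2 fold change 0.85 ± 0.12 (SE), adjusted p = 0.000417). Mgll, the monoglyceride lipase, rose by 0.56 ± 0.09 (SE) on the log2 scale (adjusted p = 0.000938), from 684 ± 61.7 (SD, n = 6) to 1022 ± 82.6 TPM (SD, n = 5). Adcy5, an adenylate cyclase, rose by 0.81 on the log2 scale (adjusted p = 0.00174). Hcar1, the lactate receptor that restrains lipolysis, had 85.2, 122, 96.6, 123 and 116 TPM in FL_KO and 46.5, 62.4 and 71.2 TPM as lowest, median and highest in GC_KO. It rose by 0.83 on the log2 scale (adjusted p = 0.0126) without overlap.

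Fabp4, the fatty acid chaperone of fat cells and one of the most abundant genes measured, stood at 30760, 30294, 30598, 29939 and 28502 TPM in the flown mice, a narrow range above the highest ground mouse (16817 to 24858 TPM). Its log2 fold change was 0.51 ± 0.11 (SE), adjusted p = 0.00821. The first lipases of the pathway did not pass the test. Pnpla2, which encodes ATGL, stood at 0.31 ± 0.12 (SE) on the log2 scale (adjusted p = 0.128) and was called with limma on TPM and without GC_KO mouse 4. Lipe, the hormone-sensitive lipase, stood at 0.12 ± 0.12 (adjusted p = 0.624).

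Among 12 genes of fatty acid uptake 2 rose with edgeR, Fabp4 and Angptl4, against 3.73% of all genes tested. DESeq2 and limma on TPM each called 5 higher and none lower, and edgeR with FL04 in the fit 4 and none. With the mouse number as a block 5 rose and 1 fell. Angptl4, a fasting-induced inhibitor of lipoprotein lipase, had 472, 501, 487, 657 and 616 TPM in flight and 186, 241 and 381 TPM as lowest, median and highest on the ground. The groups did not overlap and Angptl4 rose 2.08-fold (log2 fold change 1.06 ± 0.16 (SE), adjusted p = 0.000561). Lpl, the lipoprotein lipase, did not pass the test (log2 fold change -0.27 ± 0.12 (SE), adjusted p = 0.172).

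Fatty acid oxidation had 4 of 27 genes higher (3.73% over all genes tested) and none lower, with a median of 0.14. They were Ech1 (0.53 ± 0.08 (SE), adjusted p = 0.000417), Acaa1b (0.93 ± 0.14, adjusted p = 0.00055), Eci1 (0.47 ± 0.10, adjusted p = 0.00738) and Hadhb (0.37 ± 0.10, adjusted p = 0.0229), enzymes of the peroxisomal or mitochondrial chain. Ech1 had 806, 800.2, 821, 849.8 and 747 TPM in flight and 486 to 629 TPM on the ground. Acaa1b is nearly identical to Acaa1a, so its counts depend on how reads were split, and it overlaps Dlec1 on the other strand. Pdk4, which switches off pyruvate dehydrogenase in fasting, had 88.1, 79.9, 36.8, 59.7 and 38.3 TPM in the flown mice and 11, 19.8 and 53.4 TPM as lowest, median and highest on the ground. It rose by 1.28 ± 0.35 (SE) on the log2 scale (adjusted p = 0.0275), though the highest ground mouse lay within the flown range and the call was lost without GC_KO mouse 9 or 11 or FL_KO mouse 1 or 2 (adjusted p up to 0.0882 over all alternatives).

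Few respiratory chain genes were called. For the lists in this paragraph, the shares over all genes tested were 3.73% higher and 3.98% lower. Of 76 nuclear subunits 1 rose, Ndufa7 (0.43 ± 0.10 (SE), adjusted p = 0.0132, log2 scale), and the median was 0.02. None of the 13 mitochondrially encoded subunits was called by edgeR, DESeq2 or limma, with a median of -0.23 and 3 lower at an unadjusted p under 0.05. Of 20 genes of pyruvate dehydrogenase and the TCA cycle 3 fell and 1 rose. Pdhb (-0.60, adjusted p = 0.00788) and Pdha1 (-0.38, adjusted p = 0.0174) encode both subunits of pyruvate dehydrogenase E1, Pcx (-0.43, adjusted p = 0.0452) encodes pyruvate carboxylase, and Idh2 (0.30, adjusted p = 0.0259), an NADPH-forming isocitrate dehydrogenase, went up. Branched-chain amino acid breakdown, which feeds acetyl-CoA to fat cells, had 1 of 20 genes lower, Mccc1 (-0.47, adjusted p = 0.0236), and a median of -0.04. The calls of Pdhb, Pdha1, Idh2, Mccc1 and Pcx held in 18, 14, 14, 13 and 6 of the 18 alternatives.

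**Figure D3:**
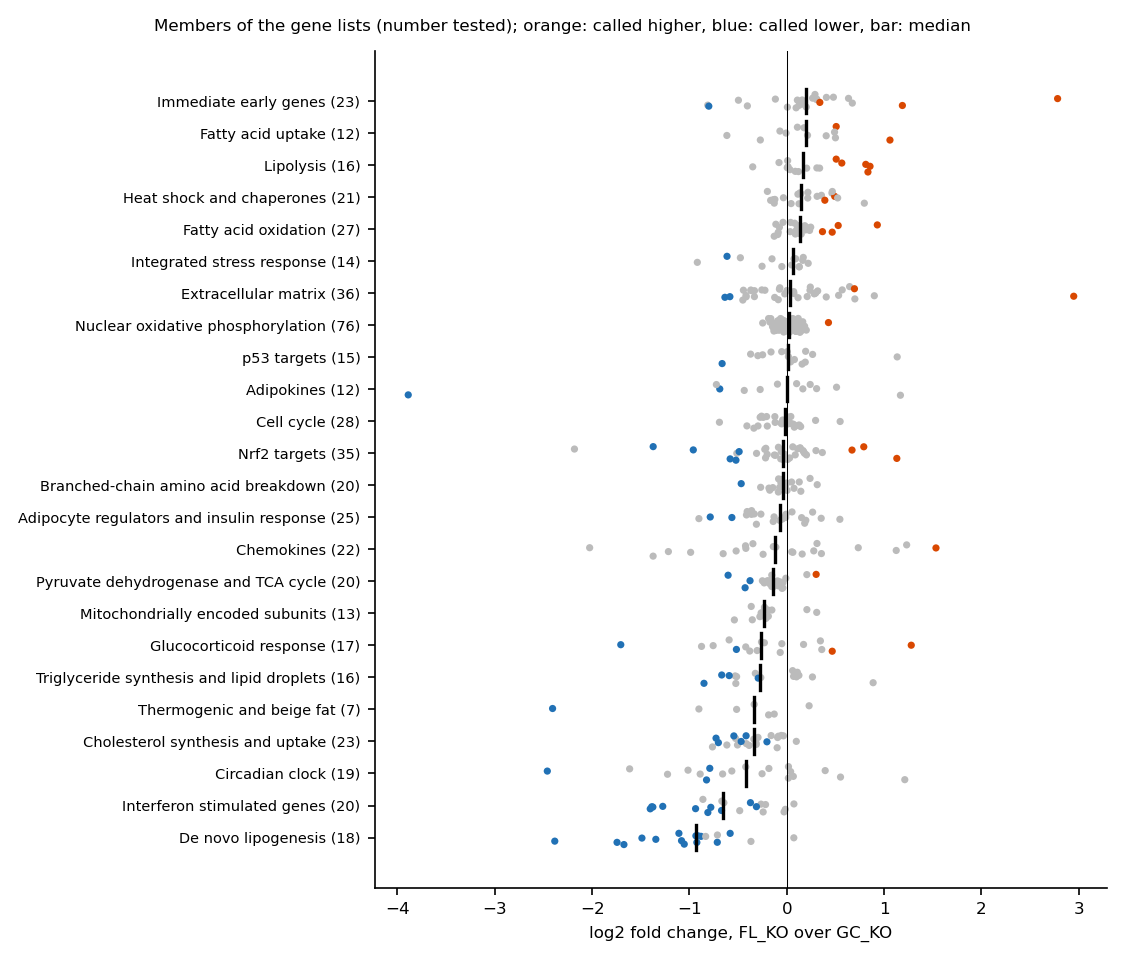
Log2 fold change between FL_KO and GC_KO (x axis) of each tested member of 24 gene lists, ordered by their median (black bar). De novo lipogenesis (median -0.93) and interferon stimulated genes (median -0.66) held 14 and 10 blue points, which were called lower, and lipolysis and fatty acid oxidation held 5 and 4 orange points, which were called higher.

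Cholesterol synthesis and uptake was lower in 6 of 23 genes (3.98% over all genes tested) and higher in none, with a median of -0.34 and 22 of the 23 below 0. Cyp51, the lanosterol demethylase, had 8.98, 9.48, 10.4, 10.3 and 11 TPM in flight and 11.1, 17.1 and 21.1 TPM as lowest, median and highest on the ground, and fell by 0.73 ± 0.14 (SE) on the log2 scale (adjusted p = 0.0029). Nsdhl (-0.70, adjusted p = 0.00473), Idi1 (-0.42, adjusted p = 0.017), Msmo1 (-0.47, adjusted p = 0.0172) and Tm7sf2 (-0.20, adjusted p = 0.0355) are other steps of the pathway that fell. The Tm7sf2 call held in 8 of the 18 alternatives. Cyp51 overlaps Akap9 on the opposite strand. The list was lower in 3 to 8 genes over the alternatives, with 3 when FL_KO mouse 2 was left out.

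Abcg1, which exports cholesterol from cells to high density lipoprotein (ENSMUSG00000024030.6, chr17:31057675-31117988, plus strand), gave 1 of the smallest adjusted p-values of all genes. The flown mice had 47.7, 70.7, 48.5, 57.9 and 46.1 TPM. The ground mice had 16.6, 19.1 and 22.2 TPM as lowest, median and highest. The groups were far apart compared with their spread, and Abcg1 rose 2.79-fold (log2 fold change 1.48 ± 0.13 (SE), adjusted p = 1.2e-06).

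The thrombospondins, secreted matrix proteins that restrain vessel growth, rose several-fold. Thbs1, thrombospondin 1 (ENSMUSG00000040152.8, chr2:118111876-118127133, plus strand), had 228, 433, 189.9, 560.4 and 579 TPM in FL_KO and 20, 34.1 and 131 TPM as lowest, median and highest in GC_KO. Every flown mouse exceeded every ground mouse, of which mouse 12 was the highest, and Thbs1 rose 7.71-fold (log2 fold change 2.95 ± 0.49 (SE), adjusted p = 0.000969). Thbs2, thrombospondin 2, had 88.9, 114, 57.2, 82 and 72.8 TPM in flight and 10.2, 18.8 and 20.2 TPM on the ground. It rose 4.86-fold without overlap (log2 fold change 2.28 ± 0.32 (SE), adjusted p = 0.000417).

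Of the 36 listed matrix genes, 2 rose (Thbs1 and Postn), 2 fell (Dcn and Mmp2) and the median was 0.04. Over all genes tested 3.73% rose and 3.98% fell. Postn, periostin, rose by 0.69 ± 0.12 (SE) on the log2 scale (adjusted p = 0.00179). Dcn, decorin (-0.58, adjusted p = 0.0243), and Mmp2, a gelatinase (-0.64, adjusted p = 0.0247), fell, but the calls held in 12 and 13 of the 18 alternatives and were lost with limma on TPM and without GC_KO mouse 1 or 9 or FL_KO mouse 2 or 12 (adjusted p up to 0.0789 and 0.0873). Outside the list, the collagen gene Col6a5 had 5.64, 3.07, 5.11, 6.33 and 6.99 TPM in FL_KO and 8.31, 23.2 and 81 TPM as lowest, median and highest in GC_KO and fell by 2.67 ± 0.55 (SE) on the log2 scale (adjusted p = 0.00488). The ground mice spread over a wide range while the flown mice lay close together.

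Of 14 endothelial markers 3 rose and none fell with edgeR when FL04 was left out, with a median of 0.15 and 4 below 0. In that fit 3.73% of all genes tested rose and 3.98% fell. At an unadjusted p under 0.05, 6 were higher and 1 lower. DESeq2 called 4 higher and 1 lower, and so did edgeR when FL04 was added. The blocked fit called 3 higher and 1 lower, and limma on TPM 3 higher and none lower. Cldn5, the tight junction claudin of vessels, had 137, 165, 227, 232 and 234 TPM in flight and 67.9, 86.7 and 107 TPM as lowest, median and highest on the ground, and rose 2.33-fold (log2 fold change 1.22 ± 0.24 (SE), adjusted p = 0.00329). Kdr, the VEGF receptor (0.53 ± 0.12 (SE), adjusted p = 0.00765, log2 scale), and Eng, endoglin (0.38 ± 0.12 (SE), adjusted p = 0.0458), rose, the latter in 7 of the 18 alternatives, while Pecam1, a pan-endothelial marker, had 139.6 to 222 TPM on the ground and 152 to 207 TPM in flight (adjusted p = 0.839). The summed endothelial markers were 948 to 1142 TPM in GC_KO and 1044 to 1407 in FL_KO. Of 8 markers of smooth muscle and pericytes, Cspg4 (-0.94, adjusted p = 0.00231) and Mylk (-0.79, adjusted p = 0.00855) fell. Of 4 Schwann cell markers tested, Pmp22 fell (-0.61, adjusted p = 0.00661). With edgeR and DESeq2 none of 12 stromal progenitor markers (2 lower at an unadjusted p under 0.05) and none of 11 mesothelial markers (1 lower) was called, although all 11 mesothelial markers lay below 0 with a median of -0.76.

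Interferon stimulated genes were the second group that fell together when FL04 was left out. Of 20 listed genes 10 fell (3.98% over all genes tested) and none rose, with a median of -0.66 and 19 below 0. Ifit3 had 11.3, 12.7, 15.9, 17.8 and 22 TPM in FL_KO and 26.9, 38.5 and 55.2 TPM as lowest, median and highest in GC_KO. The groups did not overlap, and Ifit3 fell to 41.3% of the ground level (log2 fold change -1.27 ± 0.19 (SE), adjusted p = 0.000462). Rsad2, the antiviral enzyme viperin, had 1.69, 1.84, 4.07, 3.39 and 4.38 TPM in flight and 6.32, 7.74 and 9.67 TPM on the ground, also without overlap (-1.40 ± 0.23 (SE), adjusted p = 0.000889, log2 scale). Gbp3, a guanylate-binding protein, fell by 0.81 on the log2 scale (adjusted p = 0.000417). Ifit1 (-1.38, adjusted p = 0.0096) and Mx1 (-1.39, adjusted p = 0.0147) fell at levels of at most 10.1 and 3.02 TPM.

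This decrease depended on the choice of flown mice. FL04 had 148 TPM of Ifit3, 28.3 of Rsad2, 31.9 of Gbp3, 33 of Ifit1 and 12.6 of Mx1, each above all 23 other eWAT libraries. The 20 genes summed to 975 TPM in FL04, 252 to 326 TPM in the other flown knockout mice and 308 to 502 TPM in GC_KO. With FL04 in the fit 1 of the 20 genes was called lower, and Ifit3 (-0.05, adjusted p = 0.964), Rsad2 (-0.19, adjusted p = 0.858) and Gbp3 (-0.47, adjusted p = 0.134) were not, while Ifit1 (0.26, adjusted p = 0.835) and Mx1 (0.75, adjusted p = 0.532) changed sign. Under the other alternatives the list had 6 to 12 genes lower, with 6 when GC_KO mouse 1 or FL_KO mouse 2 was left out and 6 with limma on TPM (median -0.42). In wild type, where FL04 has no part, 2 of the 20 genes fell and the median was -0.21. Ifit3 stood at 16.2 to 28.2 TPM in GC_WT and 14.2 to 27.1 TPM in FL_WT, below most GC_KO mice in both.

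**Figure D4:**
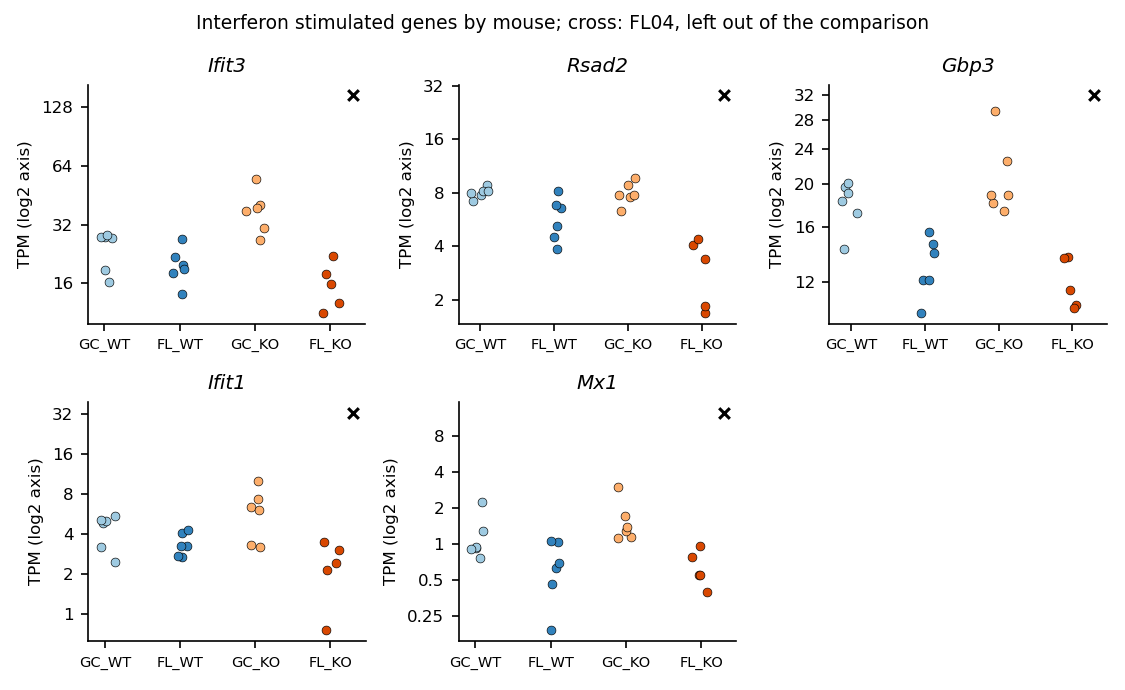
TPM of 5 interferon stimulated genes by mouse in the 4 eWAT groups, on log2 axes. The 5 flown knockout mice of the comparison (for Ifit3 11.3 to 22 TPM) lay below the ground knockout mice (26.9 to 55.2 TPM) for each gene but Ifit1, where the groups met, while FL04 (cross) lay above all other mice for each gene.

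The interferon genes are known to carry interferon stimulated response elements (ISRE) near their start sites. For this the core GAAANNGAA was added to the motifs after the values were seen. It lay in the windows of 11 of the 15 listed genes that have one, and in 6 of the 7 called genes with a window, against 9.76% of all genes. Ifit3 held 3 copies and Rsad2 held 1, beside an antioxidant element core near the 5′ end of the window and an AP-1 motif. All are in capitals.
Ifit3, chr19:34583279-34583578, plus strand: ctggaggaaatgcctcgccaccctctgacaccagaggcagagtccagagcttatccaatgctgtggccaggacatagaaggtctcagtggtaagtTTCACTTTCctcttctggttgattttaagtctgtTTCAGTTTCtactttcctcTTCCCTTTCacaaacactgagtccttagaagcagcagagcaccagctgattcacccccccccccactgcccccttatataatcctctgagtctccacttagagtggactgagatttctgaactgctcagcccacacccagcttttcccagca
Rsad2, chr12:26456403-26456702, minus strand: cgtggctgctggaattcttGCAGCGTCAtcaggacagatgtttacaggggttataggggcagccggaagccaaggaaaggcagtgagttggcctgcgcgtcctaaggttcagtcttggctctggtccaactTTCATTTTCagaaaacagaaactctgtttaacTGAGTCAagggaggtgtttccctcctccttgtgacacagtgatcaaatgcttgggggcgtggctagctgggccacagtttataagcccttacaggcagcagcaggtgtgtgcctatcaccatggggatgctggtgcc

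Markers of immune cells were not called. None of 23 macrophage markers passed the test with edgeR or DESeq2, nor with limma among the 22 it tested, with a median of -0.04 and 3 lower at an unadjusted p under 0.05. Cd68 had 42.4 to 75.7 TPM on the ground and 49.7 to 81.6 TPM in flight (adjusted p = 0.508), Adgre1, which encodes F4/80, 9.3 to 20.7 and 10.5 to 18.4 TPM (adjusted p = 0.966), and Lgals3, a lectin of lipid-laden macrophages, 76.9 to 178 and 111 to 252 TPM (adjusted p = 0.267). None of 16 lymphocyte markers was called by edgeR or DESeq2 (1 lower at an unadjusted p under 0.05), although their sum did not overlap between the groups. Ighm, the IgM heavy chain, had 206, 116, 184, 204 and 123 TPM in FL_KO and 286, 349.8 and 812 TPM as lowest, median and highest in GC_KO, with an adjusted p of 0.0876. It made up most of the lymphocyte sum in each flown mouse (140 to 237 TPM). The ground sums were 328 to 837 TPM, so the gap between the sums is largely that of Ighm. Ighm was called with FL04 in the fit (adjusted p = 0.0455) and with only the knockout groups in it. The part of lymphoid tissue dissected with the fat was not tested.

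Of 22 chemokines 1 rose and none fell with edgeR, while 3 rose and 1 fell with DESeq2. With edgeR 3.73% of all genes tested rose and 3.98% fell. Without GC_KO mouse 11, 1 rose and 1 fell. The median was -0.13 and 12 lay below 0. At an unadjusted p under 0.05, 3 were higher and 4 lower. Cxcl1, which attracts neutrophils, had 4.63, 3.81, 2.4, 2.14 and 3.06 TPM in flight and 0.9 to 1.33 TPM on the ground and rose by 1.53 ± 0.43 (SE) on the log2 scale (adjusted p = 0.0307). The call was lost without GC_KO mouse 1, 9 or 12 or FL_KO mouse 1 or 2 (adjusted p up to 0.0793). The monocyte attractants Ccl2 (1.23 ± 0.44 (SE), adjusted p = 0.0876) and Ccl7 (1.12 ± 0.40 (SE), adjusted p = 0.0902) did not pass edgeR's test with FL04 left out. Both were called higher by DESeq2 and with FL04 in the fit, at log2 fold changes of 1.90 (adjusted p = 0.0198) and 2.26 (adjusted p = 0.0146), and Ccl2 also with only the knockout groups in the fit and Ccl7 without FL_KO mouse 9. C7, a late complement component, had 10.9, 5.05, 15.3, 22.9 and 9.07 TPM in FL_KO and 31.6, 74.2 and 197 TPM as lowest, median and highest in GC_KO. It fell by 2.72 ± 0.43 (SE) on the log2 scale (adjusted p = 0.000732) without overlap. Lcn2, lipocalin 2, fell by 1.71 (adjusted p = 0.0229), with 4.14 to 34.6 TPM on the ground and 5.08 to 8.52 TPM in flight. Its call held in 13 of the 18 alternatives and was lost without GC_KO mouse 11 or FL_KO mouse 2 or 12 (adjusted p up to 0.091). In wild type Lcn2 stood at 0.95 on the log2 scale (adjusted p = 0.156), with 2.37 to 8.8 TPM in GC_WT. The adjusted p for the difference between the genotypes' flight responses was 0.314 in edgeR and 0.0262 in DESeq2.

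Several genes that Nrf2 is known to control differed between flown and ground mice although Nrf2 was missing in both. Of 35 tested, 3 rose and 5 fell, against 3.73% and 3.98% of all genes tested, with a median of -0.04. Gstm1, a mu class glutathione transferase (ENSMUSG00000058135.12, chr3:108012255-108017973, minus strand), had 901, 815, 764, 829 and 901 TPM in FL_KO and 347, 372 and 441 TPM as lowest, median and highest in GC_KO. The flown mice lay far above the ground mice, and Gstm1 rose 2.19-fold (log2 fold change 1.13 ± 0.10 (SE), adjusted p = 1.2e-06). Gstm4 had 54.5, 51, 47.7, 48.1 and 51.7 TPM in flight and 24.2 to 33.5 TPM on the ground (0.79 ± 0.12 (SE), adjusted p = 0.000417, log2 scale). Mu class genes are close copies of each other, so how reads were split between them bears on these values. G6pdx, the first enzyme of the pentose phosphate pathway, rose by 0.67 ± 0.10 (SE) on the log2 scale (adjusted p = 0.000417). It overlaps Ikbkg on the other strand.

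Gsta3, an alpha class glutathione transferase whose window with an antioxidant element core is printed above, had 61.5, 33.7, 66.4, 60.7 and 61 TPM in FL_KO and 108, 159 and 180.0 TPM as lowest, median and highest in GC_KO. It fell to 38.6% of the ground level without overlap (log2 fold change -1.37 ± 0.18 (SE), adjusted p = 0.000249). Gsta4 (-0.49, adjusted p = 0.0165), the efflux pump gene Abcc1 (-0.52, adjusted p = 0.000513), transketolase Tkt (-0.96, adjusted p = 0.00465) and malic enzyme Me1 (-0.58, adjusted p = 0.033) fell as well. Tkt and Me1 supply sugar phosphates and NADPH, and Me1 is also on the lipogenesis list. The Me1 and Gsta4 calls held in 7 and 15 of the 18 alternatives. Nqo1, a much used reporter of Nrf2, was at 2.65 to 4.71 TPM on the ground and 2.11 to 3 TPM in flight (adjusted p = 0.101). An antioxidant element core lay in 12 of the 29 listed genes with a window and in 3 of the 6 called ones, against 14.0% of all genes.

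Few adipocyte regulators and hormones were called. Adipoq (adjusted p = 0.195), Lep (adjusted p = 0.83) and Pparg (adjusted p = 0.0559) did not pass edgeR's test, with 4035 ± 349.8 (SD, n = 6) and 4831 ± 283 TPM (SD, n = 5) of adiponectin, 1055 ± 207 and 1136 ± 243 TPM of leptin, and 268 ± 39.5 and 215 ± 26.2 TPM of Pparg in GC_KO and FL_KO. Pparg was called lower by DESeq2, with FL04 in the fit (adjusted p = 0.023) and without GC_KO mouse 4 or FL_KO mouse 9, and Adipoq was called higher with limma on TPM. Of 12 adipokines 2 fell, against 3.98% of all genes tested. Nampt, which makes NAD, fell by 0.69 ± 0.12 (SE) on the log2 scale (adjusted p = 0.00125). Angptl8, an insulin-induced inhibitor of lipoprotein lipase, had 7.38, 7.15, 19.1, 13.5 and 14.8 TPM in FL_KO and 9.11, 30.7 and 581 TPM as lowest, median and highest in GC_KO. The ground mice spread over more than an order of magnitude and met the flown range, and the log2 fold change was -3.89 ± 0.97 (SE), adjusted p = 0.0163, a call that was lost with limma on TPM. It overlaps Dock6 on the opposite strand. Of 25 regulators and insulin response genes, Hk2, a hexokinase (-0.79, adjusted p = 0.0147), and Pik3r1, the PI3-kinase regulatory subunit (-0.56, adjusted p = 0.0324), fell, in 17 and 13 of the 18 alternatives. Of 7 thermogenic genes Dio2, which activates thyroid hormone, fell, at levels of at most 1.68 TPM (-2.41, adjusted p = 0.0193), and Ucp1 had 0.29 to 4.73 TPM on the ground and 0.35 to 3.31 TPM in flight (adjusted p = 0.878).

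Genes of the circadian clock leaned lower. Of 19 clock genes 3 fell (3.98% over all genes tested) and none rose, with a median of -0.42. Tef (-0.82, adjusted p = 0.0184) and Hlf (-0.79, adjusted p = 0.0161) are transcription factors driven by the clock. Bhlhe40, a repressor in the clock that insulin and stress also induce, had 11.2, 11.1, 11.4, 11.9 and 11.9 TPM in the flown mice, nearly the same in each. The ground mice ran from 11.4 to 167 TPM, so that the lowest of them was as low as the flown mice (log2 fold change -2.46 ± 0.54 (SE), adjusted p = 0.00766). The calls of Tef and Hlf held in 15 and 17 of the 18 alternatives. Within each condition Tef was higher in the mice of low number. GC_KO mice 1, 2 and 4 had 124, 102 and 99.8 TPM and mice 9, 11 and 12 had 71.3, 66.3 and 61.4 TPM, while FL_KO mice 1 and 2 had 69.6 and 57.7 TPM and mice 9, 11 and 12 had 43.4, 38.6 and 39.9 TPM. The parts of the hour and the order of dissection were not tested.

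The stress and growth lists that follow held few calls each, and 7.71% of all genes tested were called. Of 23 immediate early genes, Fos (1.19, adjusted p = 0.0303), Fosl1 (2.78, adjusted p = 0.0129) and Klf6 (0.34, adjusted p = 0.0352) rose and Ier3 fell (-0.80, adjusted p = 0.0328). Fosl1 was near the floor, with 0.07 to 0.51 TPM in GC_KO and 0.4, 1.2, 0.41, 4.67 and 2.29 TPM in FL_KO, so the groups overlapped. The calls of Fos, Klf6 and Ier3 held in 10, 10 and 5 of the 18 alternatives and were lost with limma on TPM, and that of Fosl1 held in 15 of the 16 that tested it. With FL04 in the fit the call of Ier3 was lost (adjusted p = 0.0966). Of 17 glucocorticoid responsive genes Pdk4 and Hsd11b1 (0.47, adjusted p = 0.0362), which regenerates active glucocorticoid, rose, and Lcn2 and Klf9 (-0.52, adjusted p = 0.0381) fell. Hsd11b1 and Klf9 held in 9 and 7 of the alternatives, and both calls were lost with FL04 in the fit (adjusted p = 0.0612 and 0.0719). The heat shock genes Hspb1 (0.49, adjusted p = 0.0147) and Dnajb1 (0.39, adjusted p = 0.0378) rose among 21, in 17 and 10 of the alternatives. Phlda3 of 15 p53 targets (-0.66, adjusted p = 0.0108) and Mthfd2 of 14 genes of the integrated stress response (-0.61, adjusted p = 0.0158) fell. Of 28 cell cycle genes none was called by edgeR and 1 by DESeq2 (1 at an unadjusted p under 0.05).

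The remaining genes with the largest differences lay outside the lists. Peg3, an imprinted zinc finger gene, had 48, 61.2, 26.7, 44.7 and 37.1 TPM in FL_KO and 5.55, 8.44 and 25.4 TPM as lowest, median and highest in GC_KO. It rose 4-fold without overlap (adjusted p = 0.0011). Gm36827 (log2 fold change 1.85, adjusted p = 0.0065), Dusp9, a MAP kinase phosphatase (1.35, adjusted p = 0.00838), and Zfyve28 (1.26, adjusted p = 0.00055) rose from low levels. Hpca, which encodes a neuronal calcium sensor, had 0.64, 0.94, 1.01, 0 and 0.48 TPM in flight and 1.72, 4.13 and 18.3 TPM on the ground, where mouse 1 was the highest, and fell by 3.33 ± 0.65 (SE) on the log2 scale (adjusted p = 0.00353). Hpca overlaps Tmem54 on the other strand. Cyp2f2, a cytochrome P450, had 2.64, 0.39, 2.72, 1.7 and 1.89 TPM in FL_KO and 6.91, 13 and 22.8 TPM as lowest, median and highest in GC_KO and fell to 14.3% of the ground level (adjusted p = 0.00284). Disp2 (-1.89, adjusted p = 0.00298) and Serpina3m (-1.83, adjusted p = 0.00127), a serine protease inhibitor with several close copies, fell too.

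The same contrast in wild-type mice uses other animals. In eWAT, 2057 genes were called between FL_WT and GC_WT, 13.4% of those tested. Of the 1181 genes called in the knockout, 646 were called in the same direction in wild type, 535 were not called and none was called in the opposite direction. The difference between the genotypes' flight responses was tested gene by gene as an interaction. With edgeR none of the 15317 genes passed, with a smallest adjusted p of 0.309, and 1291 (8.43%) had an unadjusted p under 0.05. DESeq2 called 16, limma none and edgeR with the mouse number as a block 1. Of the 535 genes not called in wild type, 177 had an unadjusted interaction p under 0.05. These 535 were picked by the same values that the interaction compares, which favours a small p. The count is therefore no test of a difference between the genotypes.

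Transcripts of lipogenesis fell in both genotypes. In wild type 12 of the 18 genes fell, 10 of them also in the knockout, with a median of -0.84. Fasn changed by -1.89, Scd1 by -1.06 and Thrsp by -1.17 on the log2 scale, and the interaction p-values of edgeR were 0.252, 0.966 and 0.627 before adjustment. Acly (knockout -1.74, wild type -0.56) and Elovl6 (knockout -1.67, wild type -0.60) had adjusted interaction p-values of 0.5 and 0.548. Thbs1 (2.22), Thbs2 (2.22), Peg3 (1.97), Abcg1 (1.55), Aqp7 (0.90) and Gstm1 (0.79) rose in wild type as well. Hcar1, which rose in the knockout, stood at -0.14 in wild type, with an adjusted interaction p of 0.394 in edgeR.

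In 3 lists many members lay on the same side of equality between the genotypes. Of 20 genes of branched-chain amino acid breakdown, 14 fell in wild type (median -0.37) and 1 in the knockout (median -0.04), and 13 had an unadjusted interaction p under 0.05. Of 22 chemokines 8 rose in wild type (median 0.64) and, with edgeR, 1 in the knockout (median -0.13), with 11 under that threshold. Of 23 macrophage markers 8 rose in wild type (median 0.28) and none in the knockout (median -0.04), with 9 under it. Of all genes tested 8.43% were under it. These 3 lists had the highest such counts of all lists. Lists singled out by the values that are then counted favour a high count, so the counts are no test. The smallest adjusted interaction p in these lists was 0.394, 0.314 and 0.314, no member was called by DESeq2, the blocked fit or, among those it tested, limma, and the lists as such were not tested. Cd68 rose by 0.86 on the log2 scale in wild type (adjusted p = 0.00186) and stood at 0.22 in the knockout, and its adjusted interaction p in edgeR was 0.511. FL_WT mouse 3 stood apart, with macrophage markers at 3880 TPM in sum and lymphocyte markers at 1689 TPM, against 1943 to 2557 and 178 to 349 TPM in the other flown wild-type mice. Without it, an alternative chosen after the data were seen, 2 of the 23 macrophage markers rose in wild type (median 0.16) and 5 had an unadjusted interaction p under 0.05. The counts were then 6 and 10 of 21 tested chemokines (median 0.50) and 12 and 13 of 20 genes of branched-chain amino acid breakdown (median -0.32), and 6.56% of all genes were under that threshold. FL04 was left out of these counts. Its chemokines summed to 1049 TPM, against 453 to 563 TPM in the other flown knockout mice and 550 to 1133 TPM in FL_WT. For macrophage markers the same sums were 2892, 1737 to 2249 and 1943 to 3880 TPM. For branched-chain amino acid breakdown they were 2066, 2374 to 2608 and 1987 to 2732 TPM. FL04 thus lay within the FL_WT range in each list. With it in the fit 979 of 15144 genes had an unadjusted interaction p under 0.05. Genes of 1 pathway share their samples and are not independent of each other.

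**Figure D5:**
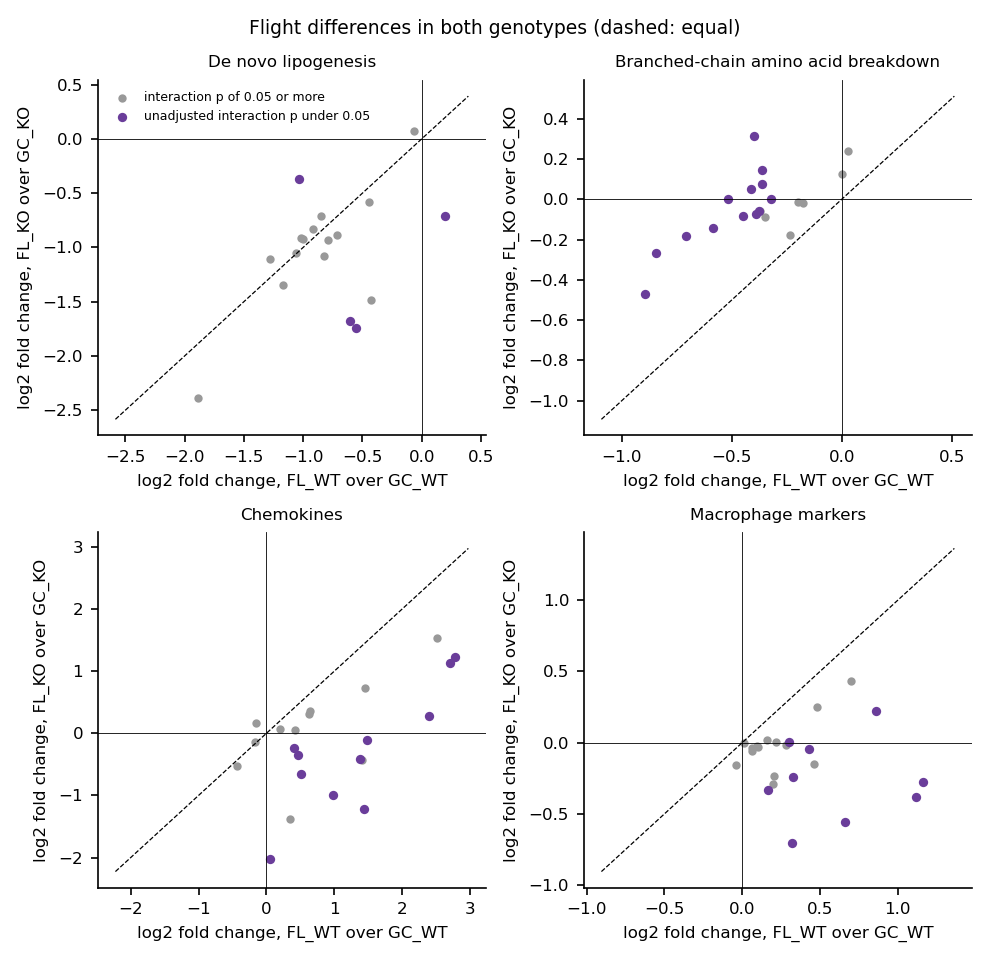
Log2 fold change between flown and ground mice in wild type (x axis) and in the knockout (y axis) for each tested member of 4 lists, with equality as a dashed line. Purple points had an unadjusted interaction p under 0.05, and 13 of 20 genes of branched-chain amino acid breakdown lay above the line in this way while 11 of 22 chemokines and 9 of 23 macrophage markers lay below it.

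The 6 genes of at least 5 TPM with the smallest interaction p were Thrb, Mipol1, Rgs7, Glb1l2, Eci3 and Acvr1c, with adjusted p-values of 0.309 to 0.314 in edgeR. DESeq2 gave 0.0262 for Thrb, 0.0262 for Mipol1, 0.0262 for Rgs7, 0.0262 for Glb1l2, 0.0262 for Eci3 and 0.0262 for Acvr1c. Thrb, a thyroid hormone receptor, changed by 0.30 in the knockout and by -0.38 in wild type. Acvr1c, the activin receptor ALK7 that restrains lipolysis in fat cells, had 26.3, 30.7, 24.4, 28.2 and 25.7 TPM in FL_KO and 15.8 to 21.8 TPM in GC_KO and rose by 0.51 ± 0.10 (SE) on the log2 scale (adjusted p = 0.00517), against -0.14 in wild type. Mipol1 (0.49 against -0.38), Rgs7, a regulator of G protein signalling (0.45 against -0.75), Glb1l2 (-0.30 against -0.93) and Eci3, an enoyl-CoA isomerase (0.14 against -0.62), had less negative or more positive values in the knockout. Of these, Acvr1c and Mipol1 were called within the knockout, the latter in 13 of the 18 alternatives. Glb1l2 was called there by DESeq2, limma and without GC_KO mouse 1, and Thrb without FL_KO mouse 11.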

How the data were processed

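RNA of eWAT was sequenced from strand-specific libraries. The deposited table holds, per gene and sample, expected counts and TPM that the authors made with STAR 2.6.1 and RSEM 1.3.1 (names and versions from the submitters' processing notes) on mm10, and 192 FPKM columns that were not used. RSEM divides reads shared by similar genes, and the strand setting of the counting is not given in the sources used here. Coordinates are those of GENCODE vM21 (GRCm38), which matched 54723 of 54752 gene identifiers (99.95%), and promoter windows are those of RefSeq (GRCm38.p6).

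Here the expected counts were rounded and genes with low counts removed (edgeR's filterByExpr). FL_KO, GC_KO, FL_WT and GC_WT were fitted together with edgeR 4.0.16 in R 4.3.3 (TMM factors, quasi-likelihood test, Benjamini-Hochberg adjustment over 15317 genes). The deposited TPM served for levels, the principal components and an alternative with limma 3.58.1 on log2(TPM + 1). Other alternatives were DESeq2 1.42.0, other size factors, all genes with a count, FL04 added, a fit of the knockout groups alone, a block for mouse number, and leaving out each of the 11 mice, and for the wild-type and interaction results FL_WT mouse 3 (added later). The fits were checked on simulated data first. P-values measure the spread between mice, and no interval or test covers the difference in place and date or any difference in food.

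The members and the gene lists were chosen with earlier results of these data known. Genes were named by a rule: Nfe2l2, up to 4 genes per list with the smallest adjusted p and up to 2 called against the list's direction, the 8 largest called changes each way without overlap in CPM and with a mean of at least 5 TPM, the 6 smallest interaction p-values at that level, and 9 marker or hormone genes. Acly, Acaca, Elovl6, Thrsp, Srebf1, Slc25a1, Hcar1, Pnpla2, Lpl, Mx1, Ifit1, Gsta4, Abcc1, Tkt, Me1, Nqo1 and Tm7sf2, the uncalled lipogenic genes and those of the closing section were chosen after their values were seen. Single list members that are counted but not named are not reported here.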

Additional observations from a re-analysis of the deposited data

Results flagged for a closer look

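Of 282 gene or marker levels tested within FL_KO and GC_KO, 20 had 1 mouse far from the others of its group (Dixon's test at 95%), and chance flags about 1 group in 20. GC_KO mouse 11 had 185 TPM of testis markers in sum, 21.4 TPM of epididymis markers and 50.8 TPM of Elovl6. FL_KO mouse 1 stood apart with 1.26 TPM of epididymis markers and, as the lowest, with 152 TPM of Pecam1.

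FL_KO mouse 2 was lowest for Scd1 (3360 TPM), Gsta3 (33.7 TPM) and Glb1l2 (154 TPM). GC_KO mouse 1 was highest for Peg3 (25.4 TPM), Hpca (18.3 TPM), Mx1 (3.02 TPM) and Dusp9 (3.53 TPM) and stood apart for Pik3r1 (180.0 TPM). GC_KO mouse 2 stood apart for Mgll (799 TPM) and Ucp1 (4.73 TPM), mouse 4 for Tm7sf2 (16.7 TPM), mouse 9 for Dio2 (1.68 TPM) and mouse 12 for Thbs1 (131 TPM). FL_KO mouse 11 was highest for Ucp1 (3.31 TPM), and mouse 12 stood apart for Gm36827 (8.66 TPM).

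FL04, the flown knockout mouse left out of the comparison, exceeded all 23 other eWAT libraries in 6 summed levels. Its interferon stimulated genes summed to 975 TPM against 502 in the next highest library. The other sums were 4660 TPM for the glucocorticoid list (next highest 4010), 889 TPM for immediate early genes (838), 11800 TPM for extracellular matrix (9760), 16.6 TPM for neutrophil markers (9.18) and 704 TPM for stromal progenitor markers (670).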

How the results depend on the processing

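Of the 103 called genes named in the text, 65 kept their call and direction under each of the 18 alternatives. Of 20 named genes that were not called (without Cfd and the uncalled lipogenic genes), 8 passed the test under at least 1 alternative. With FL04 included the called Mx1 (0.75, adjusted p = 0.532) and Ifit1 (0.26, adjusted p = 0.835) changed sign. Leaving out 1 mouse gave 387 to 734 genes higher and 319 to 718 lower in the knockout, the lowest counts without FL_KO mouse 2 and the highest without GC_KO mouse 4. DESeq2 called 801 and 836 there, and of the 1181 genes of the count fit 1174 were called by it, 1065 with FL04 included and 747 with only the knockout groups in the fit. limma on TPM called 304 genes lower in the knockout and, in wild type, 1811 higher and 456 lower, against 1019 and 1038 in the count fit. The cause was not tested. Without FL_WT mouse 3, chosen after the data were seen, 927 genes were higher and 881 lower in wild type. For the interaction DESeq2 called 11 genes higher and 5 lower where edgeR called none.

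The labels do not say what a mouse number shared by both conditions marks. The correlations of the deviations of same-numbered mice from their group means ran from -0.14 to 0.39 in the knockout, and 1 of 5 pairs correlated best with its own number, so the numbers were not treated as pairs. On the third principal component (11.7% of the variance), however, the knockout mice 1, 2 and 4 of both conditions (FL04 included) lay at -0.78 to 17.8 and mice 9, 11 and 12 at -25.1 to -8.47. What sets them apart was not tested. With the number as a block 797 genes were higher and 758 lower in the knockout, and 1 was called for the interaction. The 5 or 6 mice per group limit the detection of small differences.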

Other observations

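Outside the lists, the 10 genes with the smallest adjusted p in the knockout (edgeR) were chosen after their values were seen. Ogfrl1 fell by 0.88 ± 0.09 (SE) on the log2 scale (adjusted p = 1.55e-05), with 7.45 to 11.1 TPM in GC_KO and 4.55 to 5.26 TPM in FL_KO. Lta4h, which makes leukotriene B4, rose by 0.49 ± 0.06 (SE) (adjusted p = 4.64e-05), from 46 ± 4.14 (SD, n = 6) to 64.7 ± 5.05 TPM (SD, n = 5). Mfge8, which bridges dying cells to phagocytes, rose by 0.86 (adjusted p = 0.000416) and Dusp3, a phosphatase of MAP kinases, by 0.45 (adjusted p = 0.000417). Vav2, a signalling gene, fell by 0.59 (adjusted p = 0.000215), and in wild type its log2 fold change was -0.18 ± 0.07 (SE), adjusted p = 0.11.

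The other 5 were Sned1 (-1.06), a matrix protein gene, and Itih5 (0.73), Lrrc51 (0.76), Vsir (0.66), an immune checkpoint gene, and Palmd (0.72), with adjusted p-values of 0.000215, 0.000215, 0.000215, 0.000307 and 0.000307. Lrrc51 overlaps Lamtor1, and Vsir overlaps Cdh23, on the opposite strand. In wild type, which shares no animal with the knockout comparison, these 5 had log2 fold changes of -0.86, 0.74, 0.38, 0.79 and 0.60.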
